A study of Mus musculus with 4 samples.

Results

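Vascular smooth muscle cells of the embryonic mouse lung are described here: 146 cell barcodes of the 27815 in 4 single-cell libraries, and of the 20601 that passed the filters on barcodes. A barcode was a member when it held at least 500 genes and at most 20% mitochondrial UMIs (unique molecular identifiers, each standing for 1 captured RNA molecule), no UMI of Epcam, Cdh5, Ptprc, Myh6 or Myl7, at least 5 UMIs of Tagln, and UMIs of at least 2 of Map3k7cl, Timp4, Cxcl13, Grp and Rgs7bp. Members were thus selected on measured UMIs of these genes, whose values are given below as a description with no test. The Dnmt1 CKO libraries held 28 and 35 members, and the wild type libraries held 41 and 42.

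The 4 libraries were made from whole lungs at E18.5, late in gestation, dissociated with collagenase, dispase and DNase and depleted of red cells by lysis. The Dnmt1 CKO libraries carry 3 alleles: Tbx4-rtTA, Tet-O-Cre and the deleted form of Dnmt1 written Dnmt1-D/D, and the series' design text calls such lungs Dnmt1-null. These transgenes use Tbx4 control sequences to make rtTA, mainly in lung mesenchyme, and rtTA turns on Cre when doxycycline is given. Cells outside that lineage, and mesenchymal cells in which Cre did not act, can thus keep Dnmt1. The labels give the other group as wild type with no transgene named. They do not say whether each library is a separate animal, so p-values measure only the spread between these 4 libraries. Doxycycline timing is not given in the sources used here.

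Vascular smooth muscle wraps arteries and veins and contracts through smooth muscle actin and myosin, whose genes are driven by serum response factor and its coactivator Myocd. Notch3 signalling from endothelium keeps these mural cells differentiated, and pericytes are their counterparts on capillaries. DNA methylation copied by Dnmt1 at each cell division holds germline genes such as Dazl silent in somatic cells. Loss of that copying is known in mouse to release such genes.

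The files held between 48213065 and 56760219 UMIs per library. Members held 246370 and 247655 UMIs in all in the Dnmt1 CKO libraries, against 348513 and 449421 in wild type, with medians per cell of 7621 and 6542 UMIs against 6510 and 9130 UMIs. Between 8 and 16 barcodes were shared by any pair of libraries, and no member was. Scrublet called 0 of the 146 members doublets (it called between 1.42% and 4.27% of the barcodes that passed), and 6 and 6 members in Dnmt1 CKO and 10 and 9 in wild type also held at least 2 airway smooth muscle markers. Dnmt1 CKO replicate 1 stood apart in its sex-linked RNA. Its members held 568 CPM (counts per 1000000: the cells' summed UMIs of a gene over all their UMIs, scaled) of Xist, the non-coding RNA of the inactive X, beside 73.1 of the Y-linked Ddx3y, whereas its endothelial cells held 91.8 of Xist. Dnmt1 CKO replicate 2 and wild type replicate 1 had no Ddx3y in the members, and wild type replicate 2 had no Xist there.

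Tagln, an actin-binding protein of smooth muscle and the first gene of the selection, stood at 5236 and 5653 CPM in Dnmt1 CKO members and 5572 and 4931 in wild type members. Its lowest count in any member was 6. Of the other selecting genes, Grp, a bombesin-like peptide, had 259.8 and 650.1 against 706 and 225 CPM. Timp4, a metalloproteinase inhibitor, had 215 and 271 in Dnmt1 CKO against 407 and 360.5 in wild type, and Rgs7bp, which anchors RGS7-family proteins at the membrane, had 154 and 198 against 278 and 285. Map3k7cl had 272 and 424 against 224 and 263. Cxcl13, a chemokine that attracts B cells, had 1112 and 319 against 189 and 194, and 1 cell of Dnmt1 CKO replicate 1 held 75 of its 274 UMIs there. Of the 146 members, 60 held exactly 2 of the 5 markers and 12 held 5 to 9 UMIs of Tagln. Just outside, 10 barcodes met the marker rule with 1 to 4 UMIs of Tagln, 10 with none, and 215 had Tagln but 1 marker. Members made up 0.636% and 0.608% of the barcodes that passed in Dnmt1 CKO libraries, against 0.768% and 0.823% in wild type. The exact 95% Clopper-Pearson intervals of all 4 shares overlap (0.423% to 0.918% and 0.424% to 0.845% against 0.552% to 1.04% and 0.594% to 1.11%; they cover counting error only). Both Dnmt1 CKO libraries lay below both wild type libraries, and a two-sided exact permutation test gave p = 0.333, the smallest that 2 libraries against 2 allow.

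The label was set beside genes that the selection of the members did not use, given as a description. Acta2, smooth muscle actin, had 8041 and 8391 CPM in Dnmt1 CKO members and 7612 and 5382 in wild type members. At least 3 UMIs of it were present in every member. Myh11, the smooth muscle myosin heavy chain, had 633 and 1026 against 792 and 1015. Notch3 was found in 21 of 28 and 29 of 35 Dnmt1 CKO members and in 34 of 41 and 37 of 42 wild type members. Notch3, Heyl (a transcription factor induced by Notch) and Pdgfrb, the platelet-derived growth factor receptor of mural cells, stood at 142 to 405 CPM. Airway smooth muscle, defined by Tagln and at least 2 of Actg2, Lgr6, Nog and Hhip, had 0.922 to 124 CPM of these 3 genes. Hhip, a Hedgehog inhibitor of airway smooth muscle, was at 0 and 113 CPM in Dnmt1 CKO members and 37.3 and 8.90 in wild type members, against 1092 to 2447 in airway smooth muscle. Nog was at 0 in the members of every library. Actg2, enteric smooth muscle actin, did not separate these cell groups, with 358 to 880.3 CPM in the members and 603 to 957 in airway smooth muscle. Of the markers that selected the pericytes, Higd1b reached 97.6 at most in the members, against 666 to 2578 in pericytes. Hhip and Higd1b helped to select the airway and pericyte groups, so their higher levels there are partly set by the selection. Cox4i2, a mitochondrial subunit of mural cells, overlapped, with 179 and 428 in Dnmt1 CKO members and 571 and 380.5 in wild type members, against 482 to 1457 in pericytes.

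**Figure D1:**
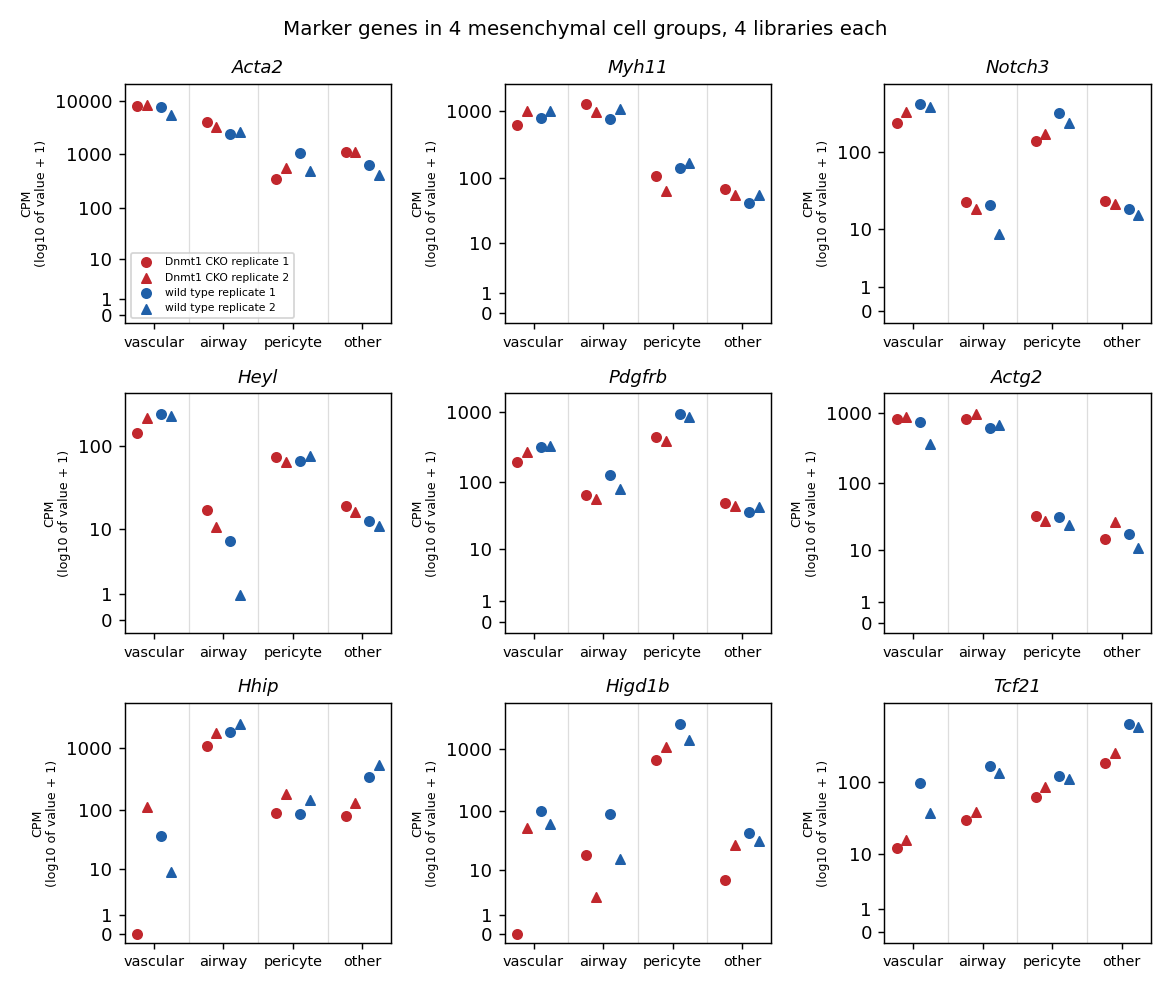
CPM (vertical axis, log10 of the value plus 1) of 9 marker genes in vascular smooth muscle, airway smooth muscle, pericytes and other mesenchyme, with 1 point for each library (red Dnmt1 CKO, blue wild type; circles replicate 1, triangles replicate 2). Vascular smooth muscle has the Acta2 and Myh11 of a contractile cell, Notch3 between 235 and 405, and 113 or less of Hhip.

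The genes with the largest mean log2 ratio of CPM (plus 1) in members over other mesenchyme are given as a description, since the members were chosen by expression. Besides 4 of the selecting genes they were Cdh6, a cadherin (log2 ratio 6.07), Ramp1, the partner of the receptor for calcitonin gene-related peptide (5.91), Olfml2a (5.78), Fabp4, a fatty acid binding protein (5.64), Ctnna3 (5.63), Dgkg, a diacylglycerol kinase (5.61), Fam81a (5.51), Myom1 (5.44), the actin nucleator Lmod1 (5.40), the actin-binding calponin Cnn1 (5.40) and Sh3bgr (5.38). Fabp4 averaged 869 CPM in the members, against 2.69 in airway smooth muscle and 11.1 in pericytes. Cdh6 averaged 118 in the members, against 16.7 and 2.86, and lay between 101 and 131 in every library. Lmod1 and Cnn1 were shared with airway smooth muscle, where they averaged 107 and 229.

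Between genotypes, 18 of the 4494 genes tested in the members were called (0.401%) by edgeR's quasi-likelihood test on the summed UMIs, at a Benjamini-Hochberg adjusted p under 0.05. Of these 17 rose in Dnmt1 CKO (0.378%) and 1 fell (0.0223%), and 5 of the 18 are gene models with no name. The risers include germline genes (Dazl, Rpl39l, Rhox5), the meiotic gene Mnd1, the inflammatory genes Saa3 and Ccl2, and the proteoglycan genes Dcn and Acan. The gene that fell was Angpt1, a ligand that stabilises vessels. At an unadjusted p under 0.05 there were 268 genes, 129 higher (2.87% of those tested) and 139 lower (3.09%). DESeq2 called 13 genes, without Mnd1, Noct, Dcn, Acan, Bst2 and Angpt1 among the named ones. Without wild type replicate 1 the count was 4, among them Dazl, Saa3 and Rpl39l, and it was 35 without Dnmt1 CKO replicate 1 and 64 without Dnmt1 CKO replicate 2, each with 13 of the 18.

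**Figure D2:**
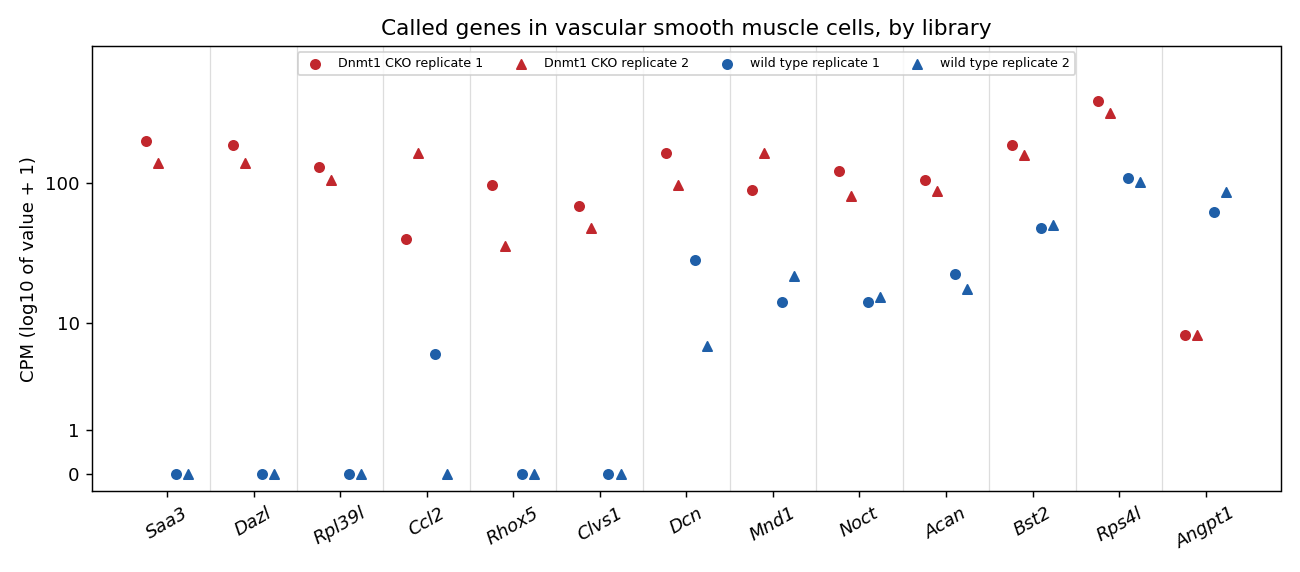
CPM in vascular smooth muscle cells (vertical axis, log10 of the value plus 1) for the 12 named genes that rose and the 1 that fell, with 1 point for each library (red Dnmt1 CKO, left; blue wild type, right). For Saa3, Dazl, Rpl39l, Rhox5 and Clvs1 both wild type libraries sit at 0, and for Angpt1 both Dnmt1 CKO libraries sit at about 8.

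Dazl encodes a germ cell protein that binds mRNA (GRCm38 chr17:50279395-50293636, minus strand). It had 183 and 137 CPM in Dnmt1 CKO members, against 0 and 0 in wild type members. The 45 and 34 UMIs behind these levels lay in 13 of 28 and 8 of 35 cells. All 83 wild type members lacked it; the exact 95% upper limits for the share of cells with a UMI there were 8.60% and 8.41%. Dazl was at least 42.5-fold higher (against a floor of 3 UMIs over both wild type libraries; edgeR adjusted p = 0.00086). Free RNA can put UMIs into cells that do not express a gene: endothelial cells of the Dnmt1 CKO libraries had 20.8 and 39.8 CPM. After thinning every cell to 3000 UMIs, which left out 1 and 2 Dnmt1 CKO members and 0 and 2 wild type members, 44.4% and 21.2% of Dnmt1 CKO members held a UMI of Dazl, against 2.72% and 5.96% of the endothelial cells of the same libraries.

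Rpl39l (chr16:10170226-10174911, plus strand), a copy of a ribosomal protein gene that is used in male germ cells, had 129.9 and 105 CPM in Dnmt1 CKO members and 0 and 0 in wild type members. It was at least 31.2-fold higher (edgeR adjusted p = 0.00174) and was found in 14 and 6 cells. Rhox5, an X-linked homeobox gene of the reproductive tract, had 97.4 and 36.3 CPM against 0 and 0, at least 17.8-fold higher (adjusted p = 0.042), in 8 and 5 cells; its call was lost when wild type replicate 1 (0.196) or replicate 2 (0.0678) was left out. These 3 were the only members of the 59-gene list of methylation-silenced germline genes with enough UMIs to be tested, and passing that filter required a high level in 1 group. Over the whole list 25 and 29 genes had a UMI in Dnmt1 CKO members, against 4 and 7 in wild type. The summed level was 739 and 808 CPM against 37.3 and 26.7. In Dnmt1 CKO replicate 2, 1 cell held 113 of the 200 UMIs behind that sum. Among the genes of the list not tested, Taf7l, a testis-specific transcription factor subunit, had 12 and 8 UMIs in Dnmt1 CKO against 0 and 0. Tuba3b, a testis tubulin, had 6 and 34 against 0 and 0. Brdt, a bromodomain protein of spermatocytes, had 1 and 0 UMIs in Dnmt1 CKO against 5 and 3 in wild type.

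Mnd1, which helps meiotic recombinases exchange strands, had 89.3 and 162 CPM in Dnmt1 CKO members and 14.3 and 22.3 in wild type members (log2 fold change 2.43, SE 0.45, edgeR adjusted p = 0.0345). Here and below, edgeR log2 fold changes are shrunk toward 0, whereas each SE belongs to the estimate without that shrinkage. Clvs1, a clavesin of clathrin-coated vesicles, had 69.0 and 48.5 against 0 and 0, at least 15.6-fold higher (adjusted p = 0.042). Noct, a circadian phosphatase, had 122 and 80.8 against 14.3 and 15.6 (log2 fold change 2.36, SE 0.44, adjusted p = 0.0345). Rps4l had 373 and 307 against 109 and 102 (1.66, SE 0.27, adjusted p = 0.0345). It is annotated as a transcribed processed pseudogene, and reads of its parent Rps4x may be split with it, as reads of Rpl39l may be with Rpl39. Mnd1 and Noct were not called by DESeq2 (adjusted p = 0.0645 and 0.148), and without wild type replicate 1 none of the 4 was called (adjusted p from 0.147 to 0.233); Clvs1 and Rps4l were also lost without wild type replicate 2 (0.0959 and 0.0678). That both Dnmt1 CKO libraries lay above both wild type libraries in these 4 genes was a condition for naming them, and adds no support.

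Of the 13 named genes, 8 matched a RefSeq promoter (GRCm38.p6). Saa3, Dazl, Rpl39l, Mnd1 and Acan are shown as genes that rose with few and with many CpGs in this window; the letters are the 250 bases before the annotated start, on the gene's own strand, with CpG dinucleotides in capitals. The windows are chr17:50293621-50293870 (minus), chr16:10169978-10170227 (plus), chr3:84155787-84156036 (minus), chr7:79052976-79053225 (plus) and chr7:46715677-46715926 (minus), in the order printed.
Dazl: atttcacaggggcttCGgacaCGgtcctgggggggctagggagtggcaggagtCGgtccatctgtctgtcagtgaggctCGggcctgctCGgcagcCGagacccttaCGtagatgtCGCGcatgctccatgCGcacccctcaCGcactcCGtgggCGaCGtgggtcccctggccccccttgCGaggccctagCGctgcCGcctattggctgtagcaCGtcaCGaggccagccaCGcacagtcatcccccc
Rpl39l: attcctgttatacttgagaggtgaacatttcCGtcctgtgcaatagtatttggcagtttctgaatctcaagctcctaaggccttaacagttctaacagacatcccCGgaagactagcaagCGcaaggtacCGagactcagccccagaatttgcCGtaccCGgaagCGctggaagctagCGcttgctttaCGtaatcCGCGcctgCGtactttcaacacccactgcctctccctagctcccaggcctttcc
Mnd1: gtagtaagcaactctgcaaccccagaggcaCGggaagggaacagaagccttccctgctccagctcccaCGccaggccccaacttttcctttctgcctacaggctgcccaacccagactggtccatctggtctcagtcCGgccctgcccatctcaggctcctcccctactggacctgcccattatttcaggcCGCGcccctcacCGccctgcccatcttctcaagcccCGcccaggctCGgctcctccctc
Acan: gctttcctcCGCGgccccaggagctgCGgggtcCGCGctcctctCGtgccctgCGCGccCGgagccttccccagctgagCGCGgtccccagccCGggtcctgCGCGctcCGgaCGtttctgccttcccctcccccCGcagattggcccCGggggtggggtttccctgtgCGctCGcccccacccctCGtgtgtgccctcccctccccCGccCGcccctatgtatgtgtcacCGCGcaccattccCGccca
Saa3: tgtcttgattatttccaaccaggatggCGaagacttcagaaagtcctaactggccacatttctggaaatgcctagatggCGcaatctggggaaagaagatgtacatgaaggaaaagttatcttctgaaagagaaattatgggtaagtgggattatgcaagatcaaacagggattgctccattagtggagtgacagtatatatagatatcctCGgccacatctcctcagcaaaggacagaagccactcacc
Dazl held 20 CpGs and Rpl39l 12, against a median of 6 over the same window of 32851 promoters (quartiles 2 and 16). Acan held 26, Mnd1 8 and Bst2 8, whereas Rhox5 held 4, Saa3 3 and Noct 2. Thus 5 of the 8 were at or above the median. The letters TCCCGC (an E2F6-type motif), on either strand, were in 1 of the 8 windows, Acan, and in 16.9% of all promoters. TGACG (part of a cAMP response element), on either strand, was in 1, Dazl, and in 17.8% of all, where it overlaps a CpG by its own letters. No window held a CArG box, the serum response factor motif, which 1.47% of all did. A match is a description of letters. Methylation was not measured in these libraries.

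Saa3 and Ccl2 belong to the acute-phase and chemokine list, in which 2 of 5 tested genes rose and 0 fell. Over all genes tested 0.378% rose and 0.0223% fell. The list holds 25 genes, and Saa3 and Ccl2 passed the count filter through their level in Dnmt1 CKO, so the 2 of 5 is a description. Saa3, an acute-phase apolipoprotein, had 195 and 137 CPM in Dnmt1 CKO members, against 0 and 0 in wild type members. It was at least 44.1-fold higher (edgeR adjusted p = 0.00086), but 47 of 48 UMIs in Dnmt1 CKO replicate 1 came from 1 cell, and 20 of 34 in replicate 2. The 5 cells with Saa3 were 2 of 28 and 3 of 35 members. Ccl2, a chemokine for monocytes, had 40.6 and 162 against 5.74 and 0, a ratio of 40.4 with a 95% counting interval of 10.6 to 343 (adjusted p = 0.0487), with 19 of 40 UMIs of replicate 2 in 1 cell. Dcn, the fibroblast proteoglycan decorin, had 162 and 96.9 against 28.7 and 6.68 (log2 fold change 2.59, SE 0.53, adjusted p = 0.042). Here 32 of 40 and 20 of 24 UMIs lay in 1 cell of each Dnmt1 CKO library. Dcn was not called by DESeq2 (adjusted p = 0.0603), and neither Ccl2 nor Dcn was called without wild type replicate 1 (0.170 and 0.0570) or replicate 2 (0.0789 and 0.0678). The sums of these 3 genes rest on a few cells, unlike Dazl, of which 36 and 25 UMIs remained without the cell that held most. Saa3 and Dcn were at higher levels in other mesenchyme of Dnmt1 CKO, with 844 and 1180 and with 576 and 575 CPM, and free RNA or fibroblast RNA in the members was not tested for them.

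Acan, the large proteoglycan of cartilage and developing arteries, had 106 and 88.8 CPM in Dnmt1 CKO members and 23.0 and 17.8 in wild type members (log2 fold change 2.00, SE 0.40, edgeR adjusted p = 0.042). It was found in 9 and 11 cells against 4 and 5. Airway smooth muscle and pericytes had no UMI of it in any library, and other mesenchyme had between 0.0610 and 0.428 CPM. Bst2, an interferon-induced membrane protein, had 183 and 157 against 48.8 and 51.2 (1.67, SE 0.30, adjusted p = 0.042), in 18 and 16 cells against 12 and 16. It was the 1 gene of 6 tested interferon and viral RNA sensing genes that rose, beside 0.378% of all genes tested. The other 5 were not called. All 6 had a log2 fold change above 0, from 0.042, where the median over all genes tested was -0.0020. At an unadjusted p under 0.05, 2 of the 6 were higher and 0 lower, beside 2.87% and 3.09% of all genes. Acan and Bst2 were not called by DESeq2 (adjusted p = 0.55 and 0.301), which called 0 of the 6 interferon genes, nor without wild type replicate 1 (0.147 and 0.171) or replicate 2 (0.0810 and 0.0678). Bst2 had a log2 fold change of 0.44 when Dnmt1 CKO members with at least 2 germline UMIs were left out.

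Angpt1, the ligand of the endothelial receptor Tek that mural cells secrete, had 8.12 and 8.08 CPM in Dnmt1 CKO members, against 63.1 and 86.8 in wild type members (log2 fold change -2.50, SE 0.55, edgeR adjusted p = 0.042). It was found in 1 of 28 and 2 of 35 cells against 15 of 41 and 14 of 42. At 3000 UMIs a cell, 0 of 27 and 0 of 33 Dnmt1 CKO members held it, against 17.1% and 22.5% of wild type members. Pericytes had 43.1 and 48.3 against 108 and 177, and other mesenchyme 33.8 and 49.3 against 76.1 and 127. The genotype difference in the members was not shown to differ from that in either (adjusted p = 0.365 and 0.169). Angpt1 was not called by DESeq2 (adjusted p = 0.613), nor when either wild type library was left out (adjusted p = 0.147 without replicate 1 and 0.781 without replicate 2).

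Dnmt1 was set beside the labels. These are 3′ libraries, and whether their reads lie outside the deleted part of Dnmt1 could not be settled. Its UMIs thus do not by themselves tell an intact allele from a deleted one. In the members Dnmt1 had 36.5 and 36.3 CPM in Dnmt1 CKO and 34.4 and 26.7 in wild type, on 9, 9, 12 and 12 UMIs (log2 fold change 0.25, SE 0.50, edgeR adjusted p = 0.985). The ratio of the summed levels was 1.21, with an exact 95% interval of 0.619 to 2.33 that covers counting error only. In airway smooth muscle the levels were 4.89 and 4.84 in Dnmt1 CKO against 21.9 and 29.5 in wild type, and in other mesenchyme 10.3 and 12.8 against 26.6 and 25.3. Pericytes had 9.13 and 27.0 against 31.9 and 37.7. The ratio was 0.194 (interval 0.0957 to 0.363) in airway smooth muscle and 0.441 (0.387 to 0.502) in other mesenchyme, below the interval of the members. In pericytes it was 0.503, with an interval of 0.311 to 0.79 that overlaps that of the members. The test of the difference between the members and airway smooth muscle gave 2.17 (SE 0.66, adjusted p = 0.307), and against other mesenchyme 1.53 (SE 0.58, adjusted p = 0.24), so that over the spread between libraries the differences were not called. Tbx4, the gene named in the activator transgene, had 20.3 and 20.2 CPM in Dnmt1 CKO members and 83.2 and 66.8 in wild type members. These levels were below airway smooth muscle (83.1 and 98.7 against 143 and 149) in each library. Whether RNA of the Tbx4 gene follows the level of the activator was not tested.

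**Figure D3:**
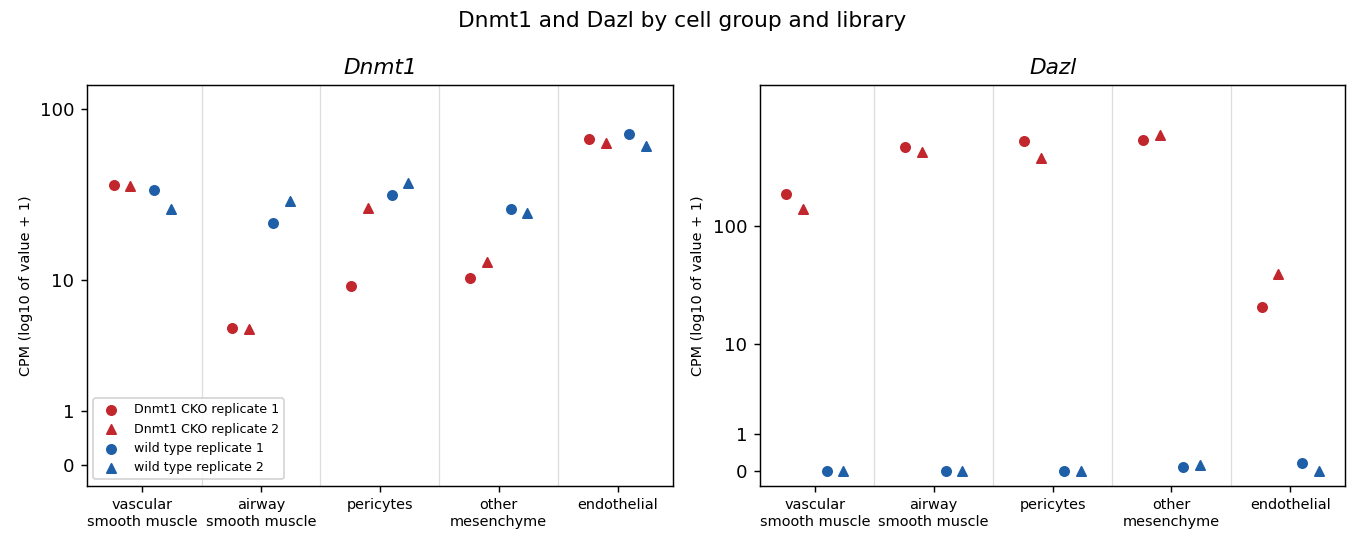
CPM (vertical axis, log10 of the value plus 1) of Dnmt1 and Dazl in vascular smooth muscle, airway smooth muscle, pericytes, other mesenchyme and endothelial cells, 1 point for each library (red Dnmt1 CKO, left; blue wild type, right). Dnmt1 in vascular smooth muscle lies at 26.7 to 36.5 in every library, and Dazl in Dnmt1 CKO lies at 183 and 137 there, against 363 or more in the other 3 mesenchymal groups.

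The Dnmt1 CKO members were not alike. At least 2 UMIs of the germline list were found in 17 of 28 cells of replicate 1 and 8 of 35 of replicate 2, against 3 of 41 and 3 of 42 wild type members. At least 5 such UMIs were found in 16 and 8 cells, against 0 and 0. In replicate 2, 1 cell held 113 of the 200 germline UMIs. At 3000 UMIs a cell the share with at least 2 was 51.9% and 24.2% in Dnmt1 CKO members, against 0% and 0% in wild type. It was 77.8% and 53.2% in Dnmt1 CKO airway smooth muscle, 77.3% and 51.0% in pericytes, 87.3% and 68.6% in other mesenchyme, and 4.89% and 5.69% in endothelial cells. In both Dnmt1 CKO libraries the members thus lay below the other mesenchymal groups and above endothelium; these shares are given with no test.

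**Figure D4:**
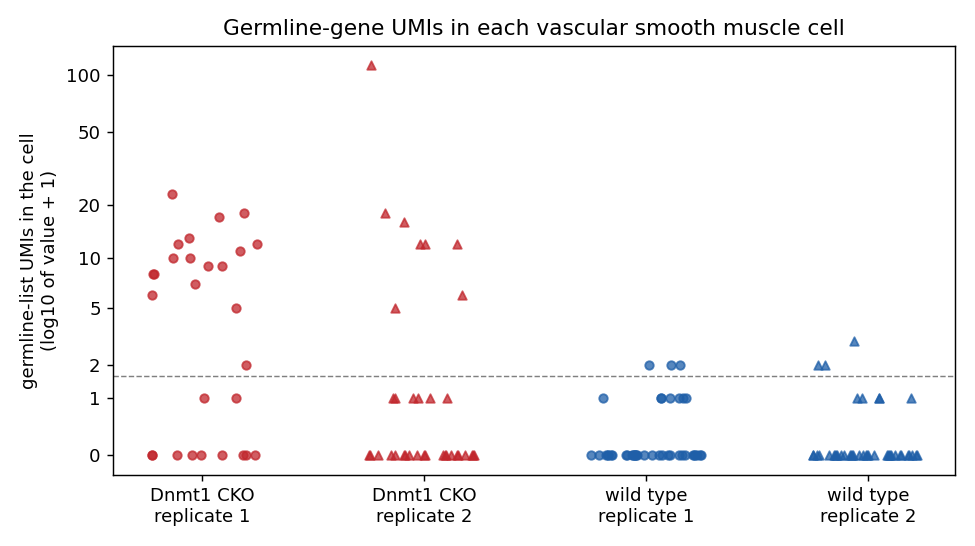
UMIs of the 59-gene germline list in each vascular smooth muscle cell (vertical axis, log10 of the value plus 1), with 1 point for each cell and 1 column for each library; the dashed line parts cells with at least 2 such UMIs from the rest. Above the line are 17 and 8 Dnmt1 CKO cells, which reach 23 and 113 UMIs, and 3 and 3 wild type cells, which reach 2 and 3.

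Dnmt1 CKO members with at least 2 germline UMIs held 4 UMIs of Dnmt1 over 17 cells and 0 over 8 cells, which is 24.6 and 0 CPM. Those with fewer held 5 over 11 cells and 9 over 27 cells, or 59.6 and 52.99 CPM. The exact 95% Poisson intervals overlap, at 6.71 to 63.0 and 0 to 47.4 against 19.4 to 139 and 24.2 to 101. Bst2 had 41 of its 45 and 25 of its 39 UMIs in the cells with germline UMIs, and Mnd1 20 of 22 and 36 of 40. Acan was spread over both kinds, with 16 of 26 and 8 of 22. Cells with germline UMIs also held contractile RNA: Acta2 had 1294 UMIs in 17 cells and 615 in 8, against 687 in 11 and 1463 in 27. The share also varied with the selecting genes, given with no test. Of Dnmt1 CKO members with Rgs7bp 6 of 15 and 3 of 23 held at least 2 germline UMIs, and of those without it 11 of 13 and 5 of 12. For Cxcl13 the order was opposite, with 12 of 16 and 5 of 12 against 5 of 12 and 3 of 23. For Grp the shares were 9 of 15 and 7 of 17 with it against 8 of 13 and 1 of 18, for Timp4 8 of 12 and 3 of 17 against 9 of 16 and 5 of 18, and for Map3k7cl 15 of 25 and 7 of 33 against 2 of 3 and 1 of 2. When Dnmt1 CKO members with at least 2 germline UMIs were left out, edgeR called 0 of 4021 genes, with 166 at an unadjusted p under 0.05. That left 11 and 27 Dnmt1 CKO cells, while the 3 and 3 such wild type members stayed in. Cells were dropped by the list that holds Dazl, Rpl39l and Rhox5, so loss of those calls was fixed in advance. With fewer cells in 1 genotype, the 0 does not tell whether other genes differ in the remaining cells.

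No gene of the contractile apparatus was called. Of 21 tested genes of that list edgeR called 0, with 5 higher and 0 lower at an unadjusted p under 0.05, beside 2.87% and 3.09% of all genes tested, and the median log2 fold change was 0.19, beside -0.0020 over all genes tested. Cnn1 had 300.4 and 202 CPM in Dnmt1 CKO and 146 and 134 in wild type (log2 fold change 0.85, SE 0.28, adjusted p = 0.536), and Des, the muscle intermediate filament, 321 and 404 against 235 and 227 (0.67, SE 0.26, adjusted p = 0.729). In both genes the Dnmt1 CKO libraries lay above the wild type libraries without reaching the threshold. Both were named by their p, so this order adds no support. Of 14 regulators 0 were called, with 0 higher and 3 lower at an unadjusted p under 0.05 (3.09% of all genes were lower; median -0.34). Myocd had 77.1 and 76.7 against 74.6 and 66.8. Nr2f2, the venous transcription factor, had 203 and 169.6 against 370.1 and 327 (-0.85, SE 0.26, adjusted p = 0.51), and Tbx2 56.8 and 113 against 238 and 162 (-1.14, SE 0.36, adjusted p = 0.51).

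Notch genes gave 0 calls of 9 tested, with 1 higher and 2 lower at an unadjusted p under 0.05, beside 2.87% and 3.09% of all genes (median -0.32). Hey2, an arterial Notch target, had 36.5 and 28.3 CPM in Dnmt1 CKO and 97.6 and 97.9 in wild type (-1.40, SE 0.37, edgeR adjusted p = 0.251). Jag1, a Notch ligand, had 203 and 137 against 83.2 and 93.5 (0.92, SE 0.30, adjusted p = 0.536). Of 17 growth factor genes 1 was called, Angpt1, beside 0.401% of all genes tested. At an unadjusted p under 0.05, 0 were higher and 1 lower (median -0.059). Among 13 genes of cyclic nucleotide signalling 0 were called, with 0 higher and 3 lower at an unadjusted p under 0.05 (3.09% of all genes were lower; median -0.19). These are the nitric oxide receptor subunit Gucy1b1 (150.2 and 186 against 287 and 320.4), the phosphodiesterase Pde5a (89.3 and 166 against 227 and 220.3) and the cGMP-dependent kinase Prkg1 (146 and 153 against 241 and 234). Their edgeR adjusted p ran from 0.536 to 0.808. As the 3 were picked by their unadjusted p, the Dnmt1 CKO libraries being below the wild type ones adds no support. Of 9 ion channel genes and 4 vasoactive receptor genes 0 were called, with 0 at an unadjusted p under 0.05. DESeq2 called 0 genes of each list in this paragraph and of the contractile and regulator lists.

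Of 39 tested matrix genes Dcn rose and 0 fell; 8 were higher and 1 lower at an unadjusted p under 0.05, beside 2.87% and 3.09% of all genes, and the median was 0.18. DESeq2 called 0 of the 39. Eln, the elastin of arterial walls, had 11207 and 6606 CPM in Dnmt1 CKO against 8433 and 8469 in wild type (0.10, SE 0.19, edgeR adjusted p = 0.985). Col1a2 had 2415 and 1643 against 1039 and 1177 (0.90, SE 0.23, adjusted p = 0.302), and Col3a1 1068 and 860.1 against 445 and 603 (0.90, SE 0.26, adjusted p = 0.446). Lum, a fibroblast proteoglycan, had 44.6 and 36.3 against 0 and 0 (adjusted p = 0.209). Of 18 integrin and adhesion genes 0 were called by edgeR and 0 by DESeq2, with 1 higher and 1 lower at an unadjusted p under 0.05. They were Vcam1 (93.4 and 88.8 against 37.3 and 37.8, adjusted p = 0.386) and the connexin Gja4 (44.6 and 8.08 against 123 and 89.0, adjusted p = 0.347).

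Imprinted genes gave 1 call of 18 tested, beside 0.401% of all genes, with 2 higher and 2 lower at an unadjusted p under 0.05 (median -0.20). The call was Dcn, which is imprinted in mouse placenta. Its UMIs lay mostly in 1 cell of each Dnmt1 CKO library, as given above. H19, a maternally expressed non-coding RNA, had 860.5 and 1853 CPM in Dnmt1 CKO and 2080.3 and 2597 in wild type (-0.75, SE 0.31, edgeR adjusted p = 0.808). Of 12 genes of the methylation machinery 0 were called, with 1 higher and 2 lower at an unadjusted p under 0.05, and of 9 p53 targets 0, with 0. Of 12 S phase genes 0 were called, with 2 higher, and of 20 G2 and M phase genes 0, with 5 lower; their medians were 0.38 and -0.38. Over all genes tested 2.87% were higher and 3.09% lower at that p. At 3000 UMIs a cell 18.52% and 9.09% of Dnmt1 CKO members held Mki67 or Top2a, proliferation markers, against 12.2% and 12.5% of wild type members. Of 8 amino acid stress genes 0 were called, with 0 at an unadjusted p under 0.05. DESeq2 called 0 genes of the lists in this paragraph.

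Markers of other cell types were also found in the members. Summed cardiomyocyte markers stood at 187 and 331 CPM in Dnmt1 CKO and 1435 and 289 in wild type, where Actc1, the cardiac actin, had 1033 in wild type replicate 1. Tnnt2, cardiac troponin T, had 60.9 and 84.8 against 382 and 205 (-1.88, SE 0.37, edgeR adjusted p = 0.0559). In wild type replicate 1, 1 cell held 42 UMIs of Tnnt2. Its other UMIs in wild type were spread over many members of both libraries, which lacked Myh6 and Myl7 by the selection. Whether Tnnt2 in the members is their own RNA or comes from cardiomyocytes was not tested. DESeq2 called Tnnt2 (adjusted p = 0.0492), the 1 gene that it called lower, and edgeR called it with any library but wild type replicate 1 left out (adjusted p = 0.217 without that one). Epithelial markers summed to 345 and 1381 against 373 and 345, led by the surfactant gene Sftpc (264 and 896 against 244 and 240.3). Erythroid markers summed to 836 and 634 against 482 and 452, endothelial markers to 97.4 and 101 against 166 and 109, and immune markers to 36.5 and 48.5 against 20.1 and 31.2. Adventitial fibroblast markers summed to 820 and 618 against 373 and 447, with Dcn the 1 of 7 tested that rose, beside 0.378% of all genes. Pericyte markers summed to 2569 and 3210.1 against 4014 and 3723. Of 9 tested 0 were called, beside 0.401% of all genes, and 0 were at an unadjusted p under 0.05. Of the 9, 0 had a log2 fold change above 0 (median -0.44, beside -0.0020 over all genes tested). Of these, Higd1b was found in 0 of 28 and 5 of 35 Dnmt1 CKO members, against 13 of 41 and 8 of 42 wild type members. Airway smooth muscle markers summed to 1745 and 2047 against 1925 and 1246, with 0 of 6 tested called. The part of these cell types in the genotype differences was not tested. Epcam, Cdh5, Ptprc, Myh6 and Myl7 were at 0 by the selection itself.

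The genotype difference of the members was then compared with that of other mesenchymal cells of the same libraries, by the interaction term in edgeR with library in the model. Against airway smooth muscle 1 of 8986 genes differed (0.0111%), with 545 at an unadjusted p under 0.05. This was Fn1, fibronectin, which had 913 and 884 CPM in Dnmt1 CKO members and 855 and 605 in wild type members, whereas airway smooth muscle had 295 and 389 against 1390.1 and 1590 (difference of log2 fold changes 2.43, SE 0.26, adjusted p = 0.00464). Airway Fn1 was thus lower in both Dnmt1 CKO libraries and that of the members was not. Leaving out either wild type library raised the count to 67 or 53, and leaving out Dnmt1 CKO replicate 2 to 16, with Fn1 among the genes each time.

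Against pericytes 87 of 7919 genes differed (1.1%), 37 upward and 50 downward in the members. Hspb1, a small heat shock protein of muscle, had 503 and 1280 CPM in Dnmt1 CKO members and 841 and 2065 in wild type members, while pericytes had 487 and 917 in Dnmt1 CKO against 85.1 and 542 in wild type (-2.27, SE 0.27, edgeR adjusted p = 7.1e-06). The histone gene H2bc4 had 44.6 and 40.4 against 60.3 and 28.9 in the members, while pericytes had 172 and 178 against 41.6 and 34.7 (-2.15, SE 0.46, adjusted p = 0.0075). Noct, which rose in the members, differed by -2.22 (SE 0.71, adjusted p = 0.0264), since pericytes had 245 and 86.7 against 2.90 and 3.02. Of the 12 genes named by size, Hspb1 alone kept its call under all 8 alternatives.

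Against other mesenchyme 197 of 14809 genes differed (1.33%), 104 upward and 93 downward in the members. H19 had 1369 and 1031 CPM in Dnmt1 CKO other mesenchyme against 289 and 351 in wild type, the reverse of the members' order given above (-2.63, SE 0.20, edgeR adjusted p = 9.76e-35). The mitotic genes Cenpf, a kinetochore protein, and Prc1, which bundles spindle microtubules, had the same pair of orders. Cenpf had 56.8 and 72.7 against 132 and 229 in the members, and 87.2 and 61.8 against 41.3 and 14.9 in other mesenchyme (-2.94, SE 0.32, adjusted p = 9.65e-17). Prc1 had 64.9 and 60.6 against 123 and 149, and 66.3 and 52.95 against 27.7 and 15.6 (-2.52, SE 0.34, adjusted p = 3.75e-10). Ccnd1, cyclin D1, had 106 and 101 against 68.9 and 64.5 in the members and 57.6 and 62.6 against 8.93 and 7.32 elsewhere (-2.12, SE 0.37, adjusted p = 5.23e-06). These 4 kept their calls under all 8 alternatives, whereas the count was 69 without Dnmt1 CKO replicate 1 and 84 without wild type replicate 2. Among the named genes that rose, the test was called for Noct against pericytes and for Dcn against other mesenchyme (1.38, SE 0.41, adjusted p = 0.0457); for Dcn the members had the larger fold change and the lower level. For Dazl, Rpl39l, Rhox5, Clvs1 and Saa3, at 0 in wild type members, and for Acan, which airway smooth muscle and pericytes lacked, the standard error was 1.56 or more or could not be had, so that these comparisons tell nothing of a difference.

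**Figure D5:**
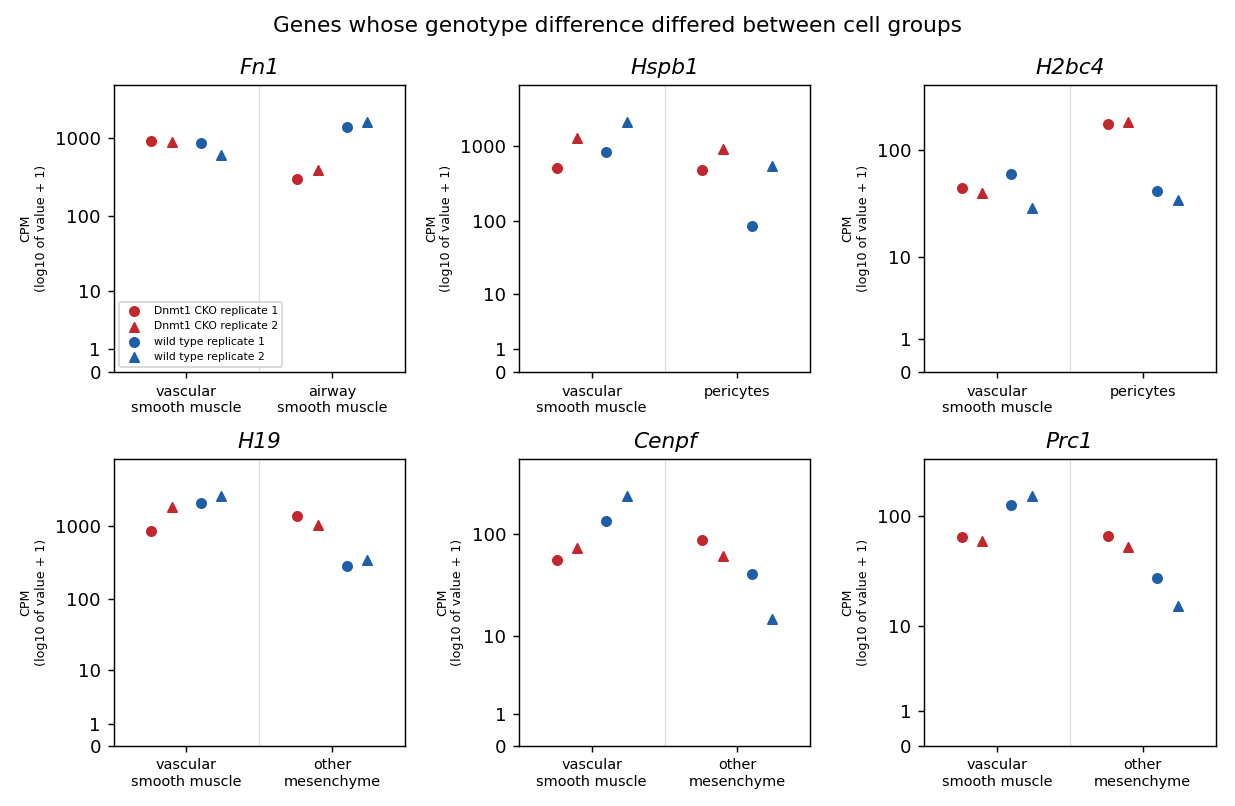
CPM (vertical axis, log10 of the value plus 1) of 6 genes in vascular smooth muscle and in the cell group it was compared with, 1 point for each library (red Dnmt1 CKO, left; blue wild type, right). Fn1 in airway smooth muscle is at 295 and 389 in Dnmt1 CKO against 1390.1 and 1590 in wild type, and H19 has opposite orders in vascular smooth muscle and in other mesenchyme.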

How the data were processed

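Droplet 3′ single-cell RNA-seq libraries (10x chemistry version 3) of embryonic mouse lung, 2 per genotype, were analysed. The authors deposited whole-number counts of UMIs for every gene in every barcode. The submitters' processing notes name Cell Ranger 3.1.0, bcl2fastq 2.20, Seurat and the build GRCm38.p6. The lowest deposited barcode total was 500 UMIs. The cells and gene lists were chosen with earlier results of these data known. Counts of the members were summed for each library and tested with edgeR 4.0.16 in R 4.3.3 (filterByExpr, TMM scaling, quasi-likelihood test, Benjamini-Hochberg adjustment over all genes tested, threshold 0.05). The difference between cell groups was tested with an interaction term and library in the model. Printed edgeR log2 fold changes, and their differences between cell groups, were shrunk toward 0 by a prior count. Each SE came from the estimate of the test itself, without that shrinkage, so it does not belong to the printed value. Airway smooth muscle had at least 5 UMIs of Tagln and at least 2 of 4 airway markers, pericytes fewer Tagln UMIs and at least 2 of Higd1b, Cox4i2, Lamc3 and Trpc6, and other mesenchyme at least 10 UMIs of 3 collagen genes. Endothelial cells had at least 2 UMIs of Cdh5 and none of the other lineage genes. Doublets were scored with Scrublet (scanpy 1.11.5, expected rate 6%) and none was removed. Named genes were Dnmt1, the selecting genes, the called genes that have a name (up to 12 in each direction by fold change, with groups that do not overlap), up to 4 genes of each list by adjusted p, and the called differences between cell groups, up to 6 in each direction by size; Myocd, Eln, Tbx4, Xist, Ddx3y, the marker genes of cell groups and the germline genes not tested were chosen after their values were seen. Positions are from GENCODE vM21. The edgeR genotype test in the members and the test of the difference from airway smooth muscle were tried on simulated counts. The other tests were not. Alternatives were DESeq2 1.42.0, other scalings, no count filter, the replicate number as a block, a sex term, leaving out sex-linked genes or each library in turn, and other selection rules.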

Additional observations from a re-analysis of the deposited data

Results flagged for a closer look

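The results here are genes whose genotype difference in vascular smooth muscle differed from that in another mesenchymal cell group of the same libraries, by the interaction term in edgeR at an adjusted p under 0.05; each value is the members' log2 fold change minus that of the other cell group. Against airway smooth muscle the gene was Fn1 (2.43).

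Against pericytes the genes with the larger value in the members were Trpc6 (2.44), a cation channel whose UMIs helped to select the pericytes, so that its value is a description and no test, Rgcc (2.39), Dpt (2.18), a matrix protein of fibroblasts, Mical1 (1.96), Arhgap31 (1.92) and Epb41 (1.87). Those with the smaller value were the chemokine Cxcl2 (-4.22), the linker histone H1f2 (-2.76), Hspb1 (-2.27), Prss35 (-2.25), Noct (-2.22) and H2bc4 (-2.15).

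Against other mesenchyme the genes with the larger value in the members were Bmp3 (4.25), a BMP family ligand, Hhip (3.47), which was among the genes that selected airway smooth muscle and turned to -3.80 without Dnmt1 CKO replicate 2, Trf, transferrin (3.47), Rin3 (3.45), Synm, an intermediate filament protein of muscle (3.43), and Col18a1, a basement membrane collagen (3.35). Those with the smaller value were Cenpf (-2.94), Hp, haptoglobin (-2.69), H19 (-2.63), Prc1 (-2.52), H1f2 (-2.16) and Ccnd1 (-2.12). Of all 25 differences, 6 kept their call under each of 8 alternatives of scaling, filter, block and left-out library: those of Fn1, Hspb1, Cenpf, H19, Prc1 and Ccnd1.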

How the results depend on the processing

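Of the 18 calls between genotypes in vascular smooth muscle, 15 were kept with RLE scaling and 16 with library size scaling. The count was 82 without a filter on low counts, 36 with sex (Y-linked transcripts) as a covariate, 7 with Tagln at 3 UMIs or more, 1 with 3 of the 5 markers, 3 without Timp4 and 1 without Map3k7cl in the selection, and 2 with an equal 28 cells from each library. In alternatives chosen after seeing the data it was 3 without members that held at least 2 airway markers. It was 0 without Dnmt1 CKO members that held at least 2 germline UMIs. Leaving out 1 library gave 4 to 64 genes. Dazl was called in all 23 alternatives that tested it. The cause of these shifts was not tested; fewer cells or genes entered some of the fits.

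The difference from airway smooth muscle was called for 73 genes without the count filter and for 2 to 67 with 1 library left out, against 1. With 1 library left out the difference from pericytes was called for 58 to 144 genes, against 87, and that from other mesenchyme for 69 to 192, against 197. Hhip against other mesenchyme reversed to -3.80 (adjusted p = 0.928) without Dnmt1 CKO replicate 2 and reached 4.87 without wild type replicate 1. Library size scaling moved the median difference from other mesenchyme to -0.133 and split its calls into 77 upward and 125 downward, against 104 and 93.

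With the replicate block the counts were 22 genes between genotypes, 97 for airway smooth muscle, 10 for pericytes and 194 for other mesenchyme. The replicates share only a number: deviations of replicate 1 from 2 correlated at 0.057 between genotypes over 4494 genes. Members hold few UMIs, and 4494 of 55471 genes could be tested, so that a gene that is not called may still differ.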
